A study of Homo sapiens with 16 samples.

Results

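The cadherins, protocadherins and desmosomal cadherins are the calcium-dependent adhesion receptors of the cell surface. Members were the protein-coding genes with a symbol of the form CDH plus a number, PCDH and its clusters, FAT1 to FAT4, DCHS1 and DCHS2, DSG1 to DSG4 and DSC1 to DSC3 that reached 10 normalized counts in at least 2 of the 16 libraries. Of 102 genes with such a symbol, 77 passed, out of 19127 genes of any kind that passed the same level. The 77 were 14 of 23 CDH genes, 6 of 6 FAT and Dachsous genes, 3 of 7 desmosomal cadherins, 9 of 13 protocadherins outside the clusters, 9 of 15 alpha, 15 of 16 beta and 21 of 22 gamma protocadherins. The other 25 did not reach the level and were not tested; they include CDH1, which encodes E-cadherin, and DSG1, DSG3, DSG4 and DSC1, desmosomal cadherins of stratified epithelia.

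RNA was sequenced from 2 human cell lines derived from anaplastic thyroid cancer (ATC), 8505c, which carries BRAF V600E, and CAL62, which carries K-RAS G12R. Both were kept in medium with 10% FBS and received for 24 h either the vehicle DMSO, U0126 at 10 µM, or DEL-22379 at 1 µM or at 10 µM, with 2 biological replicates each. DEL-22379 was designed to block the dimerization of ERK and U0126 to block MEK, the kinase that phosphorylates ERK. Whether either did so in these cultures was not measured in the files used here. The labels write the doses in mM, and the doses of the study's methods are used here. Each mutation is represented by a single line, so mutation and line cannot be told apart. P-values measure the spread between these libraries, taken for each gene over both lines together. Values are normalized counts, and log2 differences are on the scale of log2(normalized count + 1), which understates the change of genes with low levels. They and their p-values come from limma's test on all 16 libraries, with p-values adjusted over 19127 genes by the Benjamini-Hochberg method.

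Classical cadherins (CDH1, CDH2 and relatives) bind the same cadherin on the neighbouring cell and link to actin through catenins. Desmogleins and desmocollins join cells in desmosomes, where plakoglobin, plakophilins and desmoplakin tie them to intermediate filaments. The giant FAT cadherins bind Dachsous cadherins between cells and are linked to planar polarity and to Hippo signaling, while the clustered protocadherins, best known from neurons, give single cells distinct surface identities. Thyroid follicular cells are an epithelium held together by E-cadherin, and its replacement by N-cadherin (CDH2) is a classical mark of epithelial-mesenchymal transition (EMT).

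The 45 clustered protocadherins of the alpha, beta and gamma groups make up most members, and they lie in 3 neighbouring spans of chromosome 5 (GRCh38, GENCODE 29): chr5:140794852-141012344, chr5:141094578-141249365 and chr5:141330571-141512981, all on the plus strand. Each alpha and gamma gene has a first exon of its own, read from its own promoter and spliced to exons that the whole group shares, whereas beta genes stand alone. Of the exonic length of a gene, 21.3 to 56.6% was shared with other annotated genes among the alpha members and 27.6 to 64.4% among the gamma members, against 0 to 9.4% among the beta members. How the authors' counting split reads of the shared exons is not known, so the level of a single alpha or gamma gene is less certain than that of a beta gene.

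The clustered genes are read from separate promoters, and a few of those promoters are shown. In CAL62 the clustered genes that passed the test at the higher dose of DEL-22379 all fell, and those that passed with U0126 all rose. In 8505c few passed. Whether the promoters had a part in these changes was not tested. Promoter windows of 300 bases (250 before to 50 after the start, RefSeq, GRCh38.p14) were found for 40 of the 45 genes, as 45 promoters. The 7-letter words most shared on the sense strand were ATGTCGC in the alpha group (5 of 7 genes, 44 to 85 bases before the start), GGTGGCG in the beta group (13 of 13, 2 to 84 bases before it) and CGCTGTT in the gamma group (13 of 20, 39 to 199 bases before it). Among all 35116 promoters of this length, 0.46%, 4.42% and 1.2% held these words on the sense strand, and 0.84%, 7.8% and 2.26% on either strand. The words were picked by looking at these promoters and only describe them. Stretches of 40 bases are given below 5′ to 3′ with the word in capitals, for beta, gamma and alpha genes whose levels are described further on.
PCDHB12 (chr5:141208642-141208681): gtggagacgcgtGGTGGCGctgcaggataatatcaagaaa
PCDHB13 (chr5:141213864-141213903): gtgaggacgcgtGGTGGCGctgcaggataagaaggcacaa
PCDHB14 (chr5:141223262-141223301): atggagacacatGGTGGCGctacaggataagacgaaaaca
PCDHB16 (chr5:141182309-141182348): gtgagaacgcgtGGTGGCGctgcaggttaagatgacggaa
PCDHGA6 (chr5:141373839-141373878): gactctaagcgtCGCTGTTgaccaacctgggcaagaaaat
PCDHGA10 (chr5:141412935-141412974): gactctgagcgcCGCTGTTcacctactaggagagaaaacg
PCDHGB5 (chr5:141397867-141397906): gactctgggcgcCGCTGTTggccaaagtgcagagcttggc
PCDHA4 (chr5:140806979-140807018): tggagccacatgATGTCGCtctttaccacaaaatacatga
PCDHA5 (chr5:140821542-140821581): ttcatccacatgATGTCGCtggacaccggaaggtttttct
PCDHA10 (chr5:140855841-140855880): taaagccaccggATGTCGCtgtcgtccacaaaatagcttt
In each of these lines the word overlaps or is followed by the letters CGCT. These 4 letters stood in all 31 of 31 windows cut in the same way. The gamma word itself holds them, so part of this count was fixed by the choice of words. Of all promoters 70.01% hold them on either strand, a share over 300 bases and not over windows of 40. Other letters searched on both strands were less frequent in the 45 clustered promoters than among all 35116. TGANTCA, the AP-1 motif, was in 2.22% against 7.71%, CCGGAA, an ETS motif, in 6.67% against 17.25%, and CAGGTG, the E-box bound by SNAI and ZEB factors, in 8.89% against 20.59%. GGAATG, the TEAD motif, was in 13.33% against 14.03%. A match describes letters only.

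The libraries held 31260649 to 36449368 normalized counts, or 25683054 to 43855905 reads when the authors' scaling was undone. Of 10 thyroid follicular markers, 3 reached 10 normalized counts in every library of 8505c and 2 in every library of CAL62, and TSHR was under 1.5 in every library of both lines. Of the 10 mesenchymal markers, 9 reached 10 in every library of either line, and of the 11 epithelial markers 8 in 8505c and 9 in CAL62. Leukocyte markers summed to at most 48.6 in 8505c and 220.8 in CAL62.

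With DMSO the 2 lines carried similar numbers of cadherins but different ones at the top. In 8505c 47 of the 77 members reached 10 normalized counts in both DMSO libraries, and in CAL62 48 did. Per kb of exonic length not shared with other genes, the highest levels in 8505c were those of FAT1 (1455), CDH2 (1226), DSG2 (1043), DSC3 (610.4) and PCDHGC3 (573 normalized counts per kb). In CAL62 they were those of PCDHGB5 (1383), CDH2 (1007), PCDHGC3 (848), DSG2 (753) and CDH24 (509 normalized counts per kb). CDH2 and DSG2, which share no exonic length, were thus among the highest in both lines. For PCDHGC3 and PCDHGB5 the whole count is divided by the unshared length alone. Their places depend on how reads of shared exons were counted, which is not known.

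In limma's test on log2(normalized count + 1), 26 members were higher and 22 lower in CAL62 than in 8505c at an adjusted p below 0.05. Over all 19127 genes 25.6% were higher, 27.4% lower and 53% different in either direction, and the median log2 difference was 0.50 over the members and 0 over all genes, which equal totals moved to 0.12. The share of members is near that of all genes, so the number is no result about them. All 9 alpha protocadherins were higher in CAL62 (median log2 difference 4.99). Of these 9, 7 were under 10 normalized counts in all 8 libraries of 8505c. They passed the filter through CAL62 alone, so a higher level there was built in. Outside the clusters 15 of the 32 members were lower in CAL62 and 6 higher. Over all 77 members 15 were under 10 throughout 8505c and 9 throughout CAL62, so part of the calls in each direction was built in likewise. Of the 48 calls, 34 stood under all 24 alternatives that could be fitted (other pseudocounts, filters, scalings, tools and each library left out).

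N-cadherin was high in both lines. CDH2 (ENSG00000170558.10, chr18:27950966-28177446, minus strand) had 6950.1 and 5188 normalized counts in the DMSO libraries of 8505c and 4707 and 5263 in those of CAL62, ranges that overlap, with a log2 difference of -0.27 (SE 0.17, adjusted p = 0.204). E-cadherin was near the floor. CDH1 had 1.14 and 1.08 with DMSO, 0 and 0.900 with 1 µM DEL-22379, 2.35 and 0.810 with 10 µM DEL-22379, and 3.12 and 3.47 with U0126 in 8505c. In CAL62 it had 1.34 and 5.54 with DMSO, 1.11 and 3.23 with 1 µM DEL-22379, 1.28 and 7.22 with 10 µM DEL-22379, and 4.53 and 2.68 with U0126, so that no library of either line reached 10.

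Several adhesion genes were read with DMSO in only 1 of the lines. DSC3, a desmocollin of stratified epithelia, had 4049 and 4565 normalized counts in 8505c and 0 in both DMSO libraries of CAL62, at least 2540-fold lower, where the floor is 3 reads over the 2 libraries. CDH11, the osteoblast cadherin of mesenchymal cells, had 742 and 458 against 0 in all 8 libraries of CAL62, at least 354-fold lower. FAT3 had 392 and 324 against 0, at least 211-fold lower. These 3 genes were thus present in one line and unread with DMSO in the other. CDH4, the retinal cadherin, had 4045 and 3344 in 8505c and 1.34 and 0 in CAL62. CDH5, which encodes VE-cadherin of endothelium, had 492 and 849.7 in 8505c and 4.01 and 5.54 in CAL62, with a difference of -6.82 (adjusted p = 1.65e-06). Beside it, the 6 endothelial markers summed to 2816 and 3567 with DMSO in 8505c and to 678.5 and 679.8 in CAL62. Most of the sum in 8505c was TIE1 (2426 and 1794) and EGFL7 (1114 and 994). PECAM1 had 23.9 and 22.7 and VWF 2.28 and 4.32 there, and CLDN5 and KDR were under 1.5 in every library of 8505c. In CAL62 most was EGFL7 (648 and 595), and TIE1 had 9.37 and 34.2.

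In the other direction, PCDHA4 had 0 in both DMSO libraries of 8505c and 112 and 209.6 in CAL62, at least 96.7-fold higher. PCDH17, a protocadherin outside the clusters, had 0 in both of 8505c and 88.3 and 76.6, at least 49.6-fold higher, and CDH20 had 0 in both of 8505c and 41.5 and 45.2, at least 26.1-fold higher. All 3 were unread in 8505c with DMSO. Among the gamma genes PCDHGB5 had 23.9 and 21.6 in 8505c and 3418 and 3969 in CAL62, a log2 difference of 7.28 (SE 0.32, adjusted p = 2.07e-09). DCHS1, the ligand of FAT4, had 55.8 and 42.1 in 8505c and 703 and 454 in CAL62, a difference of 3.52 (adjusted p = 7.24e-07). In both genes every CAL62 library lay above every 8505c library.

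The lines also took different gamma genes as their main one. Of the summed gamma level per kb of unshared exonic length with DMSO, PCDHGC3 made up 63.7% and 61.3% in the libraries of 8505c. In CAL62 PCDHGB5 made up 54.0% and 45.3%, and PCDHGC3 24.1% and 34.2%. These shares depend on how reads of the shared exons were counted. PCDHGC3 itself had 2158 and 1568 normalized counts in 8505c and 1859 and 3653 in CAL62, a log2 difference of 0.50 (adjusted p = 0.253), which did not pass the test.

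**Figure D1:**
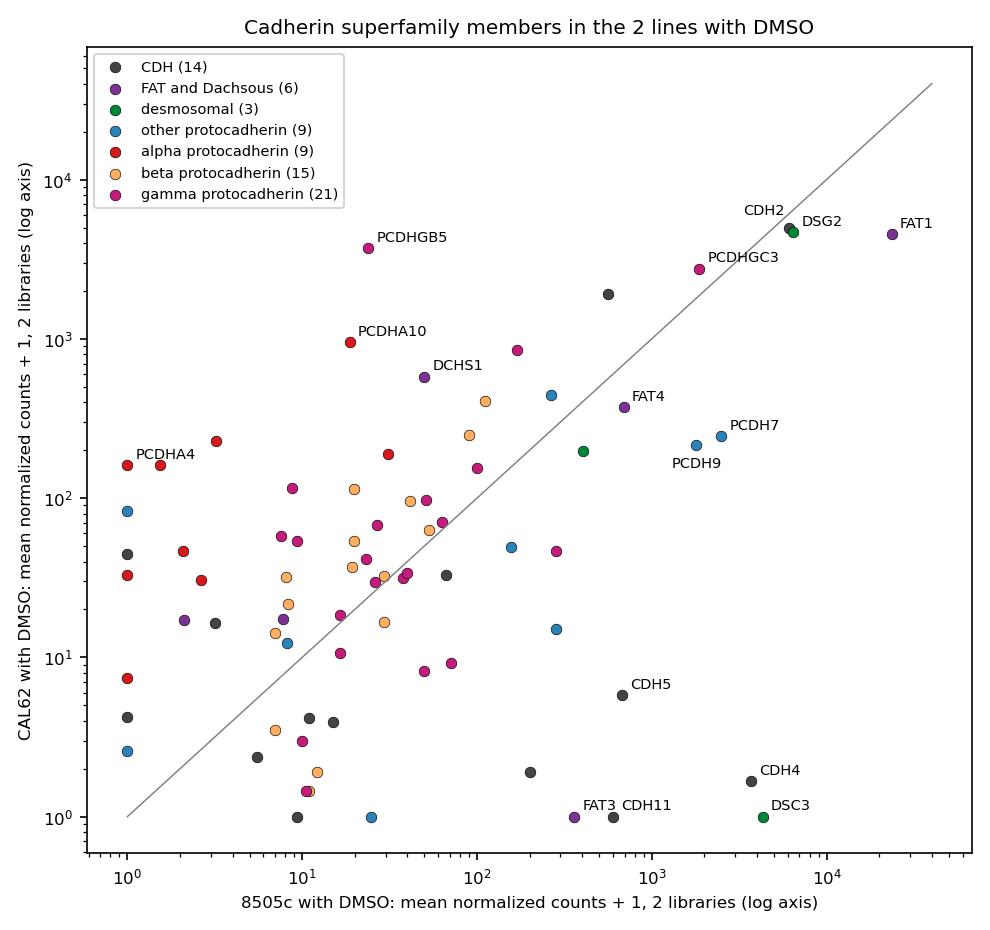
Mean normalized counts plus 1 of each of the 77 members in the 2 DMSO libraries of 8505c (x axis) and of CAL62 (y axis), both on log axes, coloured by subfamily, with the line of equal levels. CDH2 and DSG2 lie near the line, DSC3, CDH11 and FAT3 lie on the floor of CAL62, and PCDHGB5 and the alpha protocadherins lie above the line.

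The lower dose of DEL-22379 moved no member past the threshold. With 1 µM, limma called 0 of the 77 members in 8505c and 0 in CAL62, where 0.0157% and 0% of all genes were called in either direction. At an unadjusted p below 0.05 there were 4 members in 8505c and 0 in CAL62, and edgeR and DESeq2 on the recovered reads also called 0 in both lines. CDH5 in 8505c had 492 and 849.7 with DMSO and 1539.9 and 2386 with 1 µM DEL-22379, without overlap, a log2 difference of 1.57 (adjusted p = 1).

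The treatments of CAL62 at 10 µM moved many members, in opposite directions. With 10 µM DEL-22379, 33 members fell and 2 rose, where 16.8% of all genes fell, 17.1% rose and 33.9% were called in either direction. The median log2 difference was -0.96 over the members and 0 over all genes tested. With U0126, 25 members rose and 1 fell, where 14.1% of all genes rose, 15.1% fell and 29.2% were called, with a median of 1.10 over the members and 0.04 over all genes. Both comparisons use the same DMSO libraries. At stricter thresholds of the size the study used (adjusted p below 0.01 and a log2 difference beyond 1.5, applied here to plain limma differences where the study took shrunken ones), 15 members fell and 1 rose with 10 µM DEL-22379, where 2.64% of all genes fell, 3.65% rose and 6.28% were called. The member that rose there was PCDH8. With U0126 11 rose and 0 fell, where 2.24% of all genes rose, 3.06% fell and 5.3% were called. PCDH8, CDH16 and PCDHB4 reached the filter of 10 in the 2 libraries of only 1 group, 10 µM DEL-22379 for PCDH8 and U0126 for the others, so a difference of that group was built in. Without these 3 members, 1 rose with 10 µM DEL-22379 (0 at the stricter thresholds) and 24 with U0126, and in the direct comparison of the inhibitors in CAL62 43 were higher and 3 lower with U0126. In the bulk RNA of a culture, fewer cells of a kind and less RNA per cell cannot be told apart.

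These counts depended on single libraries. Without replicate 2 of CAL62 with 10 µM DEL-22379 the members called with that treatment went from 35 to 20. Those called with U0126 went from 26 to 6 without replicate 1 of CAL62 with DMSO, and to 15 without either library of U0126. With DMSO, 37 of the 45 clustered protocadherins were higher in replicate 2 of CAL62 than in replicate 1 (median log2 difference 0.89), and with 1 µM DEL-22379 42 were (0.75), while 16 were with 10 µM DEL-22379 and 19 with U0126. Of the members called, 15 of 35 and 5 of 26 stood in all alternatives that could be fitted, 25 for most genes.

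A direct comparison of U0126 with 10 µM DEL-22379 in CAL62 leaves out the DMSO libraries. In it 45 members were higher with U0126 and 4 lower, where 21% of all genes were higher, 22.1% lower and 43.1% called. The median log2 difference was 2.25 over the members and 0 over all genes. Between 45 and 51 members were called when any library was left out, and 41 of the 49 calls stood under all alternatives that could be fitted. Of the 45 clustered protocadherins 33 were higher and 0 lower. PCDHB4 is among these 45, and a higher level with U0126 was built in for it by the filter.

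The clustered protocadherins of CAL62 that passed the test all moved one way with each inhibitor. With 10 µM DEL-22379, 23 of 45 fell and 0 rose, with a median log2 difference of -1.36, or -1.48 when genes with a group at 0 were set at their bound. By group 5 of 9 alpha, 9 of 15 beta and 9 of 21 gamma genes fell. With U0126, 21 rose and 0 fell (median 1.58), 3 alpha, 10 beta and 8 gamma genes. All 15 beta genes had lower means with 10 µM DEL-22379 and higher means with U0126 than with DMSO, with medians of -1.63 and 1.90. For PCDHB4, which passed the filter through U0126 alone, the higher mean with U0126 was built in.

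Summed over each group the libraries gave the same order. The beta sum in CAL62 was 893 and 1365 with DMSO, 819.8 and 1298 with 1 µM DEL-22379, 239 and 216 with 10 µM DEL-22379, and 2923 and 2999.6 with U0126. Both libraries of 10 µM DEL-22379 lay below all others, and both of U0126 above all others. The alpha sum was 1475 and 2135 with DMSO, 1401 and 2031 with 1 µM DEL-22379, 810.4 and 543 with 10 µM DEL-22379, and 4125 and 4048 with U0126. The gamma sum was 6744 and 9520.2 with DMSO, 5699.8 and 9609 with 1 µM DEL-22379, 4611 and 4206 with 10 µM DEL-22379, and 21468 and 19049.9 with U0126. No sum overlapped between 10 µM DEL-22379 and DMSO or between U0126 and DMSO, while the sums with 1 µM overlapped those with DMSO. In 8505c the beta sum was 510.5 and 394 with DMSO, 548 and 412 with 1 µM DEL-22379, 348 and 319 with 10 µM DEL-22379, and 732 and 699 with U0126, with U0126 above all other libraries and 10 µM DEL-22379 below them. The gamma sum of 8505c was 3292 and 2479.9 with DMSO, 3142 and 2587 with 1 µM DEL-22379, 3128 and 2772 with 10 µM DEL-22379, and 4177 and 3425 with U0126, with 10 µM DEL-22379 inside the range of DMSO and U0126 above all other libraries.

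**Figure D2:**
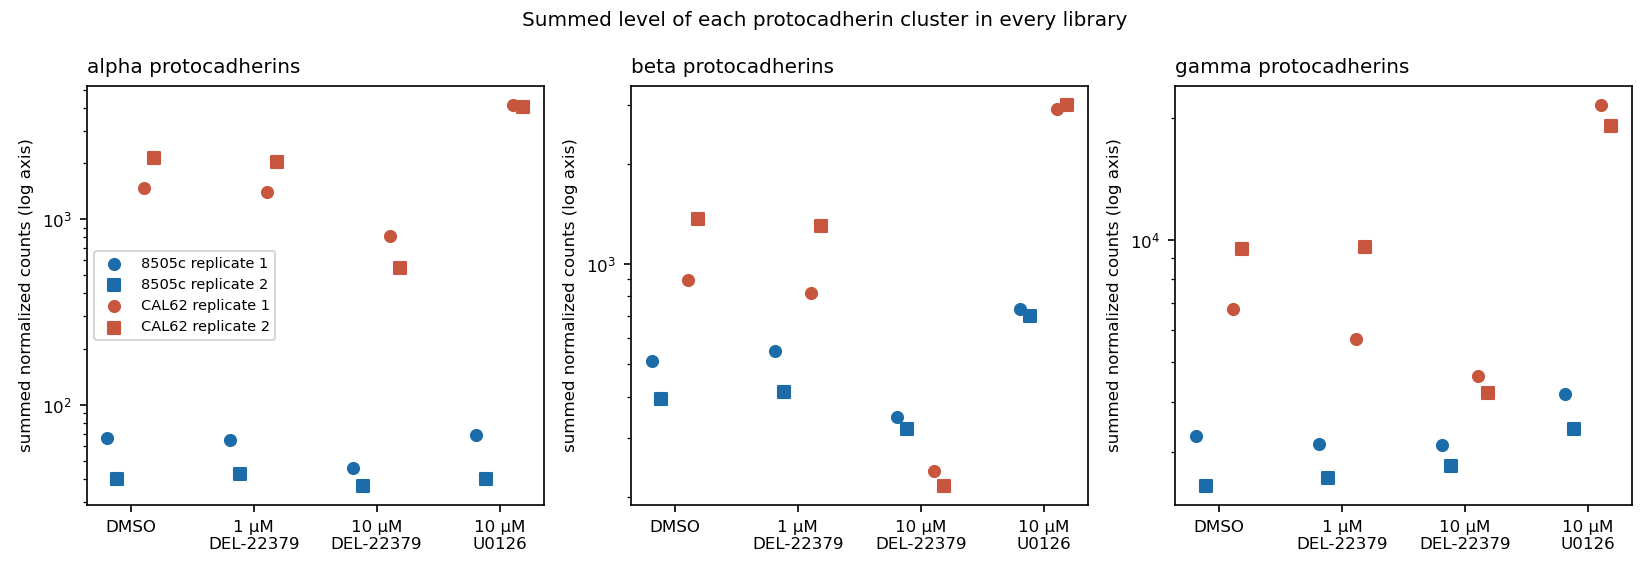
Summed normalized counts (log axis) of the 9 alpha, 15 beta and 21 gamma protocadherins in each of the 16 libraries, by treatment, with 1 point per library and each line in its own colour. In CAL62 the sums with 10 µM DEL-22379 lie lowest and those with U0126 highest in all 3 groups, and the alpha sum of 8505c lies between 36.5 and 68.6.

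Among the beta genes PCDHB5 showed the widest range. It had 76.3 and 149.6 with DMSO, 83.1 and 158 with 1 µM DEL-22379, 12.8 and 6.19 with 10 µM DEL-22379, and 431 and 460.0 with U0126 in CAL62. The 3 groups of DMSO, 10 µM DEL-22379 and U0126 did not overlap. Against DMSO the log2 difference was -3.44 (SE 0.43, adjusted p = 0.000131) with 10 µM DEL-22379 and 2.05 (SE 0.43, adjusted p = 0.00412) with U0126, the latter at 0.0591 without replicate 1 of DMSO. PCDHB2 had 367 and 442 with DMSO, 248 and 418 with 1 µM DEL-22379, 37.0 and 58.8 with 10 µM DEL-22379, and 711 and 789 with U0126. Its groups did not overlap either, and the difference was -3.08 (SE 0.34, adjusted p = 5.38e-05) with 10 µM DEL-22379, while that with U0126, 0.89 (adjusted p = 0.0654), did not pass. PCDHB14 had 89.7 and 102 with DMSO, 88.6 and 118 with 1 µM DEL-22379, 25.5 and 9.29 with 10 µM DEL-22379, and 327 and 245 with U0126, again without overlap. Its differences were -2.54 (SE 0.38, adjusted p = 0.000383) and 1.56 (SE 0.38, adjusted p = 0.00913), the second at 0.0684 without replicate 1 of DMSO and 0.0743 without replicate 1 of U0126.

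Of the other beta genes chosen by the fixed rule, PCDHB16, the most abundant of them, had 194 and 305 with DMSO, 167 and 266 with 1 µM DEL-22379, 105 and 63.0 with 10 µM DEL-22379, and 521 and 589.6 with U0126. The groups were again apart, with a log2 difference of -1.57 (adjusted p = 0.00633) with 10 µM DEL-22379, at 0.0691 without replicate 2 of that treatment. PCDHB12 had 34.8 and 36.9 with DMSO, 27.7 and 59.8 with 1 µM DEL-22379, 6.38 and 6.19 with 10 µM DEL-22379, and 119 and 103 with U0126. PCDHB13 had 37.5 and 25.9 with DMSO, 29.9 and 25.0 with 1 µM DEL-22379, 8.93 and 17.5 with 10 µM DEL-22379, and 105 in both with U0126. For both genes the libraries with U0126 lay above all others. PCDHB12 fell with 10 µM DEL-22379 by 2.34 (adjusted p = 0.000619) and PCDHB13 rose with U0126 by 1.72 (adjusted p = 0.00322), calls that stood in all alternatives. PCDHB8 had 24.1 and 99.7 with DMSO, 54.3 and 67.8 with 1 µM DEL-22379, 8.93 and 8.26 with 10 µM DEL-22379, and 171 and 205 with U0126, and PCDHB9 had 21.4 and 84.0 with DMSO, 56.5 and 71.9 with 1 µM DEL-22379, 16.6 and 24.8 with 10 µM DEL-22379, and 171 and 193 with U0126. Replicate 1 with DMSO was the lower one in both, and in PCDHB9 one library of 10 µM DEL-22379 overlapped it. PCDHB8 fell by 2.39 with 10 µM DEL-22379 (adjusted p = 0.00451), and PCDHB9 rose by 2.07 with U0126 (adjusted p = 0.00921), at 0.114 without replicate 1 of DMSO and 0.0615 without replicate 2 of U0126.

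In the alpha group PCDHA10 was the leading gene of CAL62, with 800.3 and 1109 with DMSO, 728 and 1112 with 1 µM DEL-22379, 385 and 243 with 10 µM DEL-22379, and 2679 and 2489 with U0126. DMSO, 10 µM DEL-22379 and U0126 did not overlap. It fell with 10 µM DEL-22379 by 1.62 on the log2 scale (SE 0.31, adjusted p = 0.00198) and rose with U0126 by 1.45 (SE 0.31, adjusted p = 0.00469, and 0.0591 without replicate 1 of DMSO). PCDHA5 had 22.8 and 41.5 with DMSO, 47.6 and 62.2 with 1 µM DEL-22379, 8.93 and 8.26 with 10 µM DEL-22379, and 129 and 117 with U0126, also without overlap between DMSO and either 10 µM treatment. Its log2 differences were -1.73 (adjusted p = 0.0113) and 1.96 (adjusted p = 0.00688), of which the first was at 0.0983 without replicate 2 of DMSO and 0.0547 without replicate 2 of DEL-22379, and the second at 0.101 without replicate 1 of DMSO. PCDHAC1, PCDHA7 and PCDHA13 were the alpha genes with a higher mean, with differences of 0.10, 0.60 and 0.12 with 10 µM DEL-22379 (adjusted p = 0.926, 0.551 and 0.922).

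PCDHGB5, the main gamma gene of CAL62, had 3418 and 3969 with DMSO, 2887 and 4089 with 1 µM DEL-22379, 1821 and 1656 with 10 µM DEL-22379, and 8721 and 7803 with U0126. The 2 libraries of 10 µM DEL-22379 were the lowest and those of U0126 the highest. The log2 difference from DMSO was -1.08 (SE 0.32, adjusted p = 0.0209) with 10 µM DEL-22379 and 1.16 (SE 0.32, adjusted p = 0.0172) with U0126. Each call was lost without any one of several libraries, the first at 0.103 without replicate 2 of DEL-22379 and the second at 0.116 without replicate 1 of DMSO, while the direct difference between the inhibitors, 2.25 (adjusted p = 0.000143), stood in all alternatives. PCDHGC3, the other main gamma gene, rose with U0126. It had 1859 and 3653 with DMSO, 1556 and 3525 with 1 µM DEL-22379, 1949 and 1786 with 10 µM DEL-22379, and 8280.3 and 7320.4 with U0126, so that 10 µM DEL-22379 overlapped DMSO. Its difference was 1.58 (SE 0.35, adjusted p = 0.00604) with U0126, at 0.0762 without replicate 1 of DMSO, and -0.48 (adjusted p = 0.323) with 10 µM DEL-22379.

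PCDHGA6 had 102 and 90.5 with DMSO, 90.8 and 98.5 with 1 µM DEL-22379, 24.2 and 5.16 with 10 µM DEL-22379, and 295 and 192 with U0126. It fell with 10 µM DEL-22379 by 2.96 on the log2 scale (SE 0.50, adjusted p = 0.000832) in all alternatives, and with U0126 its difference was 1.30 (adjusted p = 0.0681). PCDHGA10 had 42.8 and 97.8 with DMSO, 59.8 and 128 with 1 µM DEL-22379, 47.2 and 55.7 with 10 µM DEL-22379, and 351 in both with U0126. It rose with U0126 by 2.42 (SE 0.45, adjusted p = 0.00181) in all alternatives, and with 10 µM DEL-22379 its libraries lay between the 2 of DMSO. PCDHGA7 had 127 and 180.0 with DMSO, 46.5 and 220.4 with 1 µM DEL-22379, 40.8 and 24.8 with 10 µM DEL-22379, and 498 and 440.4 with U0126, and PCDHGA4 had 2.68 and 13.8 with DMSO, 6.65 and 18.6 with 1 µM DEL-22379, 2.55 and 0 with 10 µM DEL-22379, and 64.3 and 59.9 with U0126. In both the U0126 libraries were the highest and did not overlap DMSO. PCDHGA4 rose by 3.09 (adjusted p = 0.00681, and 0.0891 without replicate 1 of DMSO), and PCDHGA7 fell by 2.21 with 10 µM DEL-22379 (adjusted p = 0.00819, and 0.073 without its replicate 2). PCDHGC4 and PCDHGA11 were the gamma genes with a lower mean with U0126, by -0.78 and -0.06, neither of which passed (adjusted p = 0.397 and 0.978).

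The genes chosen by this rule for CAL62 had other levels in 8505c. PCDHB5 had 20.5 and 17.3 with DMSO, 33.2 and 20.6 with 1 µM DEL-22379, 21.2 and 23.5 with 10 µM DEL-22379, and 40.5 and 35.6 with U0126 there, and PCDHB2 had 133 and 87.5 with DMSO, 136 and 76.1 with 1 µM DEL-22379, 59.9 and 62.5 with 10 µM DEL-22379, and 163 and 134 with U0126. PCDHGC3 in 8505c had 2158 and 1568 with DMSO, 2010.3 and 1679 with 1 µM DEL-22379, 2104 and 1739 with 10 µM DEL-22379, and 2279 and 1771 with U0126. Over the 8 libraries of 8505c the other beta genes ranged from 32.4 to 81.1 for PCDHB8, 15.9 to 30.4 for PCDHB9, 11.8 to 29.6 for PCDHB12, 28.1 to 70.3 for PCDHB13 and 35.7 to 101 for PCDHB16. PCDHA5 had 0 in all 8, and the remaining alpha and gamma genes ranged from 15.9 to 40.5 for PCDHA10, 32.2 to 111 for PCDHGA4, 25.9 to 67.7 for PCDHGA6, 54.1 to 170.1 for PCDHGA7 and 46.4 to 182 for PCDHGA10. Every library of 8505c thus lay above both DMSO libraries of CAL62 for PCDHGA4.

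**Figure D3:**
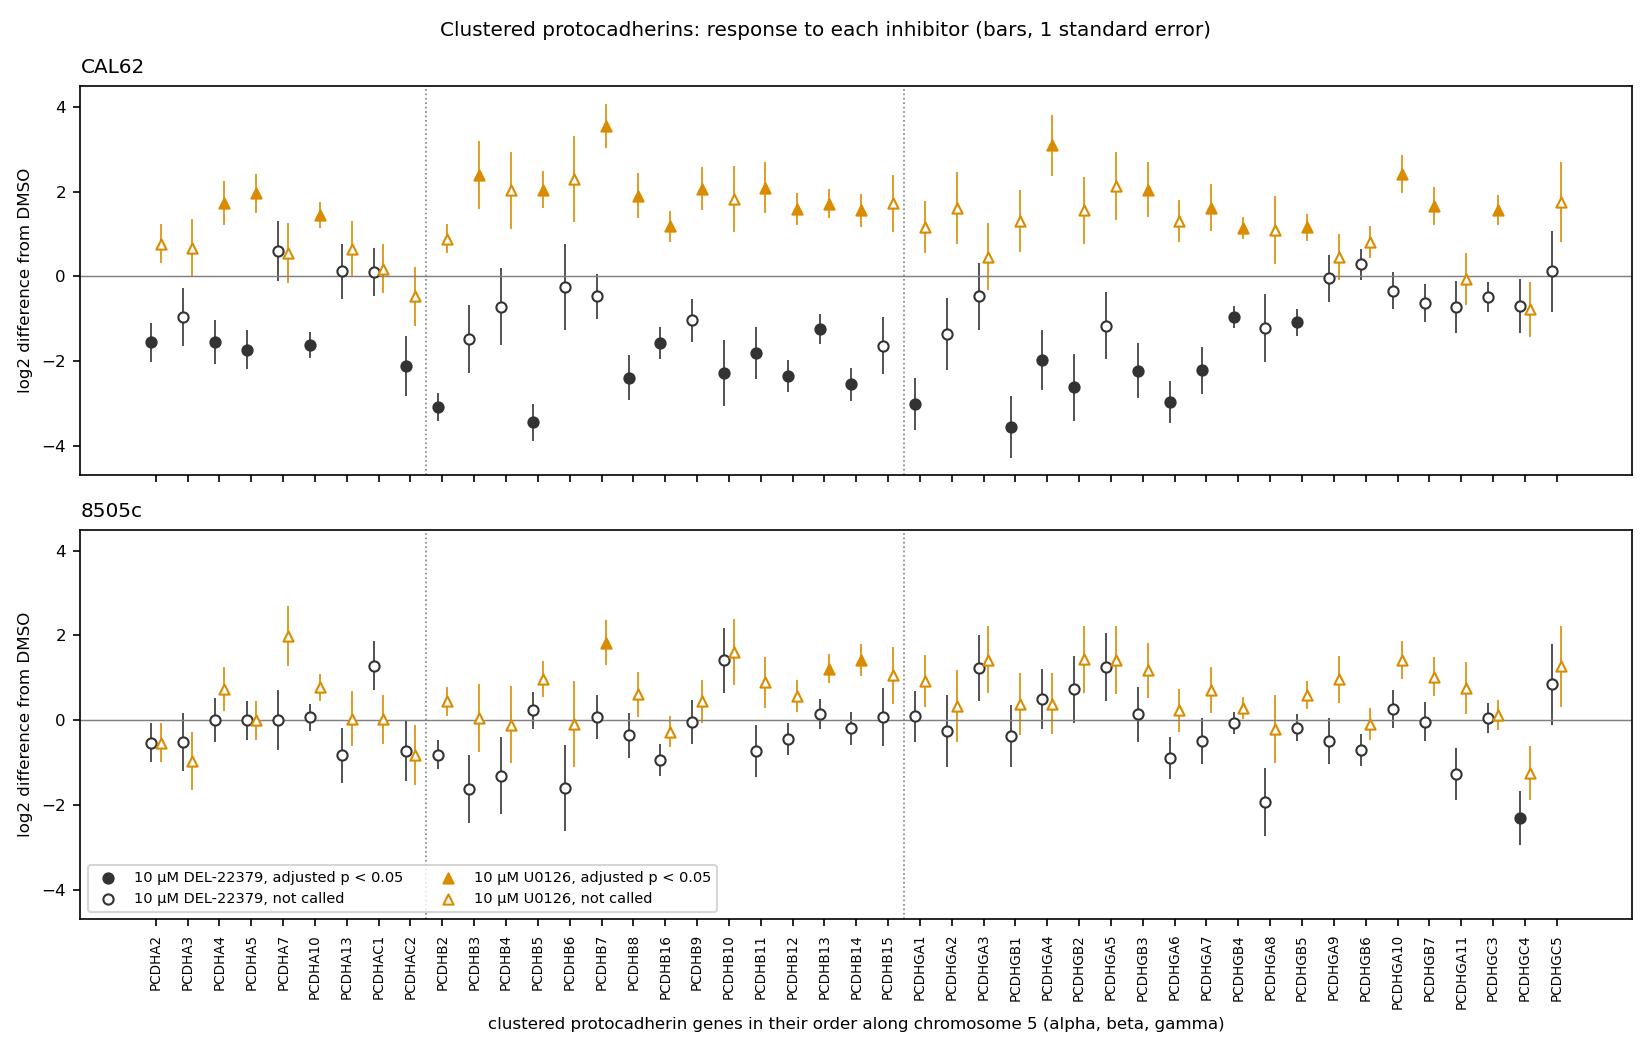
Log2 difference from DMSO of each of the 45 clustered protocadherins, in their order along chromosome 5, with 10 µM DEL-22379 (circles) and 10 µM U0126 (triangles) in CAL62 (upper panel) and 8505c (lower panel). Bars are 1 standard error and filled symbols have an adjusted p below 0.05: in CAL62 23 fell with DEL-22379 and 21 rose with U0126, and in 8505c 1 fell and 3 rose.

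The beta group, whose exonic length is shared by at most 9.4%, had the largest median difference of the 3 groups with either inhibitor in CAL62, against -1.54 and 0.67 in the alpha and -1.08 and 1.31 in the gamma group. By replicate number, the clustered sum of CAL62 with 10 µM DEL-22379 was 0.621 and 0.381 of that of the DMSO library with the same number, and with U0126 it was 3.13 and 2.00 times as high. The direction was the same in both replicates.

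FAT4 (ENSG00000196159.13, chr4:125316399-125492932, plus strand), a giant cadherin that binds DCHS1, had the widest span of all members in CAL62. It had 163 and 581 with DMSO, 144 and 463 with 1 µM DEL-22379, 20.4 and 12.4 with 10 µM DEL-22379, and 2619.7 and 2864 with U0126. The 10 µM DEL-22379 libraries lay below and the U0126 libraries above all others, although the 2 DMSO libraries were themselves far apart. The log2 difference was -4.19 (SE 0.58, adjusted p = 0.000289) with 10 µM DEL-22379 and 3.15 (SE 0.58, adjusted p = 0.00212) with U0126. Taken by replicate number it was -2.94 and -5.44 with 10 µM DEL-22379, and it was positive for both numbers with U0126. Between the 2 inhibitors it was 7.34 (SE 0.58, adjusted p = 2.82e-06). These calls stood in all alternatives. In 8505c FAT4 had 729 and 652 with DMSO, 659 and 634 with 1 µM DEL-22379, 284 and 579 with 10 µM DEL-22379, and 1015 and 1133 with U0126. The direction was the same, the U0126 libraries were the highest, but the differences of -0.76 (adjusted p = 0.414) and 0.64 (adjusted p = 0.535) did not pass.

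DCHS1, on the other side of this contact, fell with U0126 in CAL62. It had 703 and 454 with DMSO, 730.1 and 513 with 1 µM DEL-22379, 913 and 587 with 10 µM DEL-22379, and 244 and 195 with U0126, and the U0126 libraries were the lowest. The difference with U0126 was -1.37 (SE 0.30, adjusted p = 0.00471), at 0.0677 without replicate 1 of DMSO, and with 10 µM DEL-22379 it was 0.37 (adjusted p = 0.361). FAT1 (chr4:186587783-186726722, minus strand), the most abundant FAT cadherin of both lines, had 4763 and 4349 with DMSO, 4494 and 4983 with 1 µM DEL-22379, 2214 and 1762 with 10 µM DEL-22379, and 3480.2 and 3326 with U0126 in CAL62. Both libraries of 10 µM DEL-22379 were the lowest, with a difference of -1.20 (SE 0.20, adjusted p = 0.000694) that stood in all alternatives. In 8505c FAT1 had 23951 and 23119 with DMSO, 21252 and 23695 with 1 µM DEL-22379, 13818 and 20978 with 10 µM DEL-22379, and 12350.0 and 17683 with U0126, with the 10 µM treatments below DMSO in all 4 libraries. Its fall with U0126, -0.67 (adjusted p = 0.0436), did not pass without either DMSO library or without replicate 1 of U0126 (0.184, 0.141 and 0.322), nor without either 8505c library of 1 µM DEL-22379 or either CAL62 library of U0126 (0.0604 to 0.061). FAT2 in CAL62 was low throughout, with 6.69 and 25.9 with DMSO, 0 and 3.10 with 10 µM DEL-22379 and 49.8 and 43.8 with U0126.

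PCDH7 (ENSG00000169851.15, chr4:30720415-31146805, plus strand), a protocadherin outside the clusters, fell with 10 µM DEL-22379 in both lines. In CAL62 it had 249 and 240.0 with DMSO, 229 and 230.1 with 1 µM DEL-22379, 37.0 and 22.7 with 10 µM DEL-22379, and 197 and 171 with U0126. Only the 10 µM DEL-22379 libraries stood apart by a wide margin, and those of U0126 lay a little below DMSO. The log2 difference was -3.03 (SE 0.22, adjusted p = 6.99e-06) with 10 µM DEL-22379 and -0.41 (adjusted p = 0.184) with U0126, and the direct difference between the inhibitors was 2.62 (adjusted p = 2.96e-06). In 8505c, where its level was higher, PCDH7 had 2443 and 2568 with DMSO, 2175 and 2312 with 1 µM DEL-22379, 1032 and 1557 with 10 µM DEL-22379, and 1905 and 2208 with U0126. The 2 libraries of 10 µM DEL-22379 were again the lowest, with a difference of -0.98 (SE 0.22, adjusted p = 0.0131). That call was lost without replicate 1 of 10 µM DEL-22379 (0.15) or without either DMSO library (0.0658 and 0.0829).

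PCDH9, another protocadherin outside the clusters, showed its main change in 8505c, where it had 1759 and 1832 with DMSO, 1255 and 1413 with 1 µM DEL-22379, 456 and 774 with 10 µM DEL-22379, and 298 and 422 with U0126. DMSO lay highest, 1 µM DEL-22379 next, and both 10 µM treatments below them. It fell with U0126 by 2.34 on the log2 scale (SE 0.34, adjusted p = 0.00108) in all alternatives. It also fell with 10 µM DEL-22379 by 1.59 (adjusted p = 0.00976), a call lost without replicate 1 of that treatment (0.123) or either DMSO library (0.0574 and 0.0644). In CAL62 PCDH9 had 236 and 196 with DMSO, 171 and 172 with 1 µM DEL-22379, 125 and 132 with 10 µM DEL-22379, and 178 and 421 with U0126, and the 2 U0126 libraries lay on either side of DMSO.

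A few further protocadherins outside the clusters had low levels. PCDH8 in CAL62 had 1.34 and 1.85 with DMSO and 15.3 and 54.7 with 10 µM DEL-22379, the group through which alone it passed the filter, and these values are a description. PCDH10 had 44.2 and 52.6 with DMSO, 26.6 and 42.0 with 1 µM DEL-22379, 70.2 and 156 with 10 µM DEL-22379, and 29.9 and 27.7 with U0126 in CAL62, where it rose with 10 µM DEL-22379 by 1.10 (adjusted p = 0.0299, and 0.296 without replicate 2 of that treatment and 0.137 without replicate 1 of DMSO). PCDH17 had 88.3 and 76.6 with DMSO, 80.9 and 90.4 with 1 µM DEL-22379, 177 and 302 with 10 µM DEL-22379, and 34.4 and 72.3 with U0126 there, higher in both libraries of 10 µM DEL-22379, with 1.48 (adjusted p = 0.0655). PCDH20 in CAL62 had 8.03 and 14.8 with DMSO and 0 in both libraries of 10 µM DEL-22379, at least 6.58-fold lower, but 95.8% of its exonic length is shared with other annotated genes. PCDH18 had 22.8 and 5.54 with DMSO and 0 and 4.13 with 10 µM DEL-22379, with -2.46 (adjusted p = 0.0261), at 0.228 without replicate 1 of DEL-22379 and 0.218 without replicate 1 of DMSO.

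**Figure D4:**
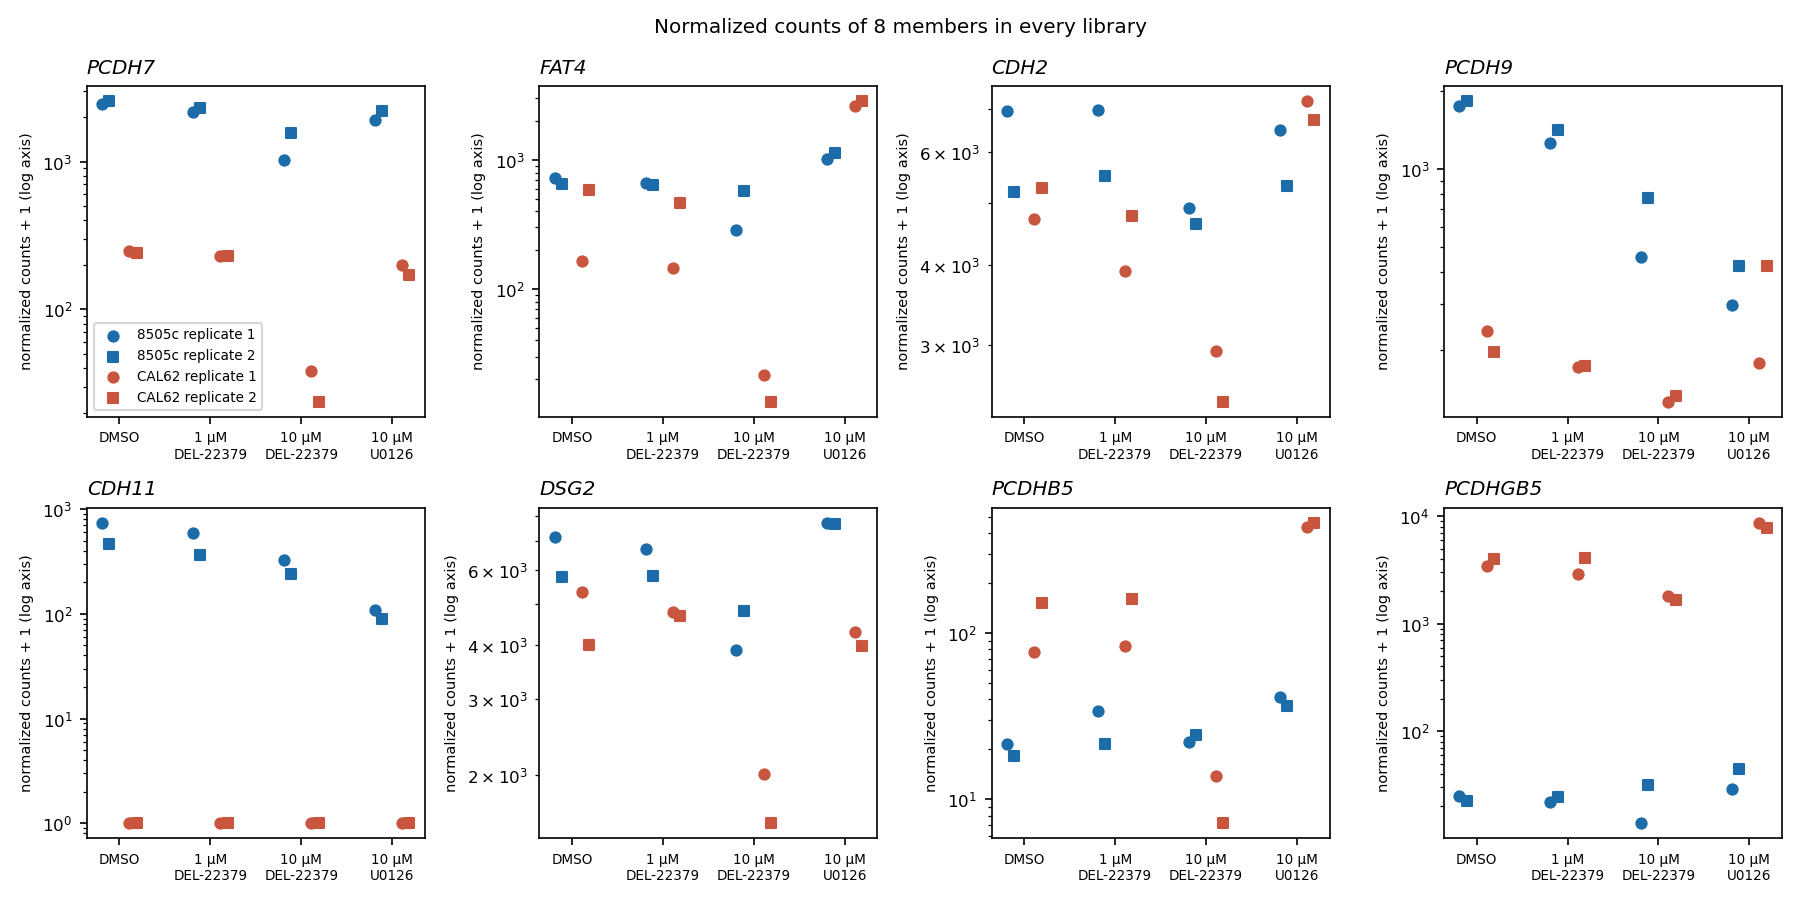
Normalized counts plus 1 (log axes) of PCDH7, FAT4, CDH2, PCDH9, CDH11, DSG2, PCDHB5 and PCDHGB5 in every library, by treatment, with 1 point per library and each line in its own colour. In CAL62 the 10 µM DEL-22379 points lie lowest for PCDH7 (37.0 and 22.7), FAT4 (20.4 and 12.4) and PCDHB5 (12.8 and 6.19 normalized counts), and in 8505c CDH11 and PCDH9 lie lowest with U0126.

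N-cadherin fell in CAL62 with 10 µM DEL-22379. CDH2 had 4707 and 5263 with DMSO, 3911 and 4758 with 1 µM DEL-22379, 2934 and 2442 with 10 µM DEL-22379, and 7205 and 6725 with U0126 there. The 10 µM DEL-22379 libraries were the lowest and the U0126 libraries the highest, without overlap with DMSO. The log2 difference was -0.90 (SE 0.17, adjusted p = 0.00185) with 10 µM DEL-22379, in all alternatives, 0.48 (adjusted p = 0.0511) with U0126 and 1.38 (adjusted p = 5.05e-05) between the inhibitors. In 8505c CDH2 had 6950.1 and 5188 with DMSO, 6974 and 5498 with 1 µM DEL-22379, 4905 and 4621 with 10 µM DEL-22379, and 6497 and 5304 with U0126, with a spread between replicates as wide as the differences between treatments (-0.34, adjusted p = 0.213, and -0.03, adjusted p = 0.94).

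In 8505c 10 µM DEL-22379 called 5 members, 1 up and 4 down, where 7.07% of all genes rose, 6.57% fell and 13.6% were called, and the median log2 difference was -0.07 over the members and 0.01 over all genes. The members called were 6.49%, below the share of all genes. When the libraries were scaled to equal totals, the split became 2 up and 3 down, and the median of all genes moved to 0.14. Besides PCDH7 and PCDH9 the 5 calls were DSG2 (-0.57, adjusted p = 0.044), PCDHGC4 (-2.31, adjusted p = 0.0323) and CDH20, which rose (2.13, adjusted p = 0.0239) to 3.53 and 3.25 from 0 in both DMSO libraries. PCDHGC4 averaged only 6.6 normalized counts with DMSO in 8505c, under the filter level of 10. No member was called without replicate 1 of 10 µM DEL-22379, nor without either DMSO library, and none of the 5 calls stood in all alternatives.

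U0126 called 11 members in 8505c, 7 up and 4 down, where 6.8% of all genes rose, 5.87% fell and 12.7% were called, with a median of 0.39 over the members and 0.02 over all genes. The members called were 14.3%, near the share of all genes, so the number is no result about them. The number was 4 and 5 without replicate 1 or 2 of DMSO and 3 and 5 without replicate 1 or 2 of U0126. CDH11, DSC2 and PCDH9 were called in all alternatives. CDH11 (chr16:64943753-65126112, minus strand) had 742 and 458 with DMSO, 585 and 361 with 1 µM DEL-22379, 322 and 241 with 10 µM DEL-22379, and 108 and 87.7 with U0126. Its level was lowest with U0126, then 10 µM DEL-22379, and the 2 treatments did not overlap DMSO. The difference was -2.57 (SE 0.40, adjusted p = 0.00161) with U0126 and -1.06 (adjusted p = 0.0945) with 10 µM DEL-22379. CDH4 had 4045 and 3344 with DMSO, 4333 and 4079 with 1 µM DEL-22379, 2570.4 and 2646 with 10 µM DEL-22379, and 1601 and 1828 with U0126, lowest with U0126 as well, but its difference was -1.10 (adjusted p = 0.286). The spread behind that p-value also takes in CAL62, where CDH4 lay between 0 and 3.83, so it does not measure the spread in 8505c alone. PCDH10 had 169.8 and 140.3 with DMSO, 214 and 167 with 1 µM DEL-22379, 150.4 and 131 with 10 µM DEL-22379, and 68.6 and 58.1 with U0126, with both U0126 libraries below all others. Its difference, -1.28 (adjusted p = 0.0335), did not pass without any one library of DMSO or U0126 (0.0972 to 0.189).

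Other classical cadherins of 8505c went up with U0126 from low levels. CDH3, which encodes P-cadherin, had 6.84 and 13.0 with DMSO, 18.1 and 5.37 with 1 µM DEL-22379, 14.1 and 12.2 with 10 µM DEL-22379, and 130.2 and 97.2 with U0126. CDH18 had 21.6 and 6.48 with DMSO, 17.1 and 6.27 with 1 µM DEL-22379, 14.1 and 10.6 with 10 µM DEL-22379, and 243 and 108 with U0126. CDH10 had 6.84 and 2.16 with DMSO, 13.1 and 10.7 with 1 µM DEL-22379, 9.40 and 4.87 with 10 µM DEL-22379, and 49.1 and 45.1 with U0126. In all 3 the U0126 libraries were above every other library. The log2 differences were 3.44 (adjusted p = 0.0142), 3.65 (adjusted p = 0.0125) and 3.27 (adjusted p = 0.0264). Without replicate 1 of U0126 they were at 0.0955, 0.112 and 0.126, and other single libraries also ended these calls. Beside them, the 6 fibroblast markers summed to 43.2 and 57.0 with DMSO and 233.9 and 359.3 with U0126 in 8505c, and their part in the result was not tested. CDH6, the kidney cadherin, had 86.6 and 45.3 with DMSO, 74.4 and 44.8 with 1 µM DEL-22379, 44.7 and 53.6 with 10 µM DEL-22379, and 469 and 345 with U0126 in 8505c, with U0126 above all others (2.66, adjusted p = 0.207). That p-value also takes in the spread of CDH6 in CAL62. In CAL62 CDH6 had 2.68 and 60.9 with DMSO, 2.22 and 68.6 with 1 µM DEL-22379, 3.83 and 4.13 with 10 µM DEL-22379, and 285 and 258 with U0126, where replicates 1 and 2 differed widely with DMSO. Its difference there was 4.17 (adjusted p = 0.0302), at 0.313 without replicate 1 of DMSO. CDH16, a cadherin of kidney and thyroid, had 0 and 6.46 with DMSO, 0 and 5.65 with 1 µM DEL-22379, 0 and 7.22 with 10 µM DEL-22379, and 19.0 and 41.1 with U0126 in CAL62 and 0 in all libraries of 8505c. It passed the filter through the U0126 libraries alone, so no test of it is given.

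Of the desmosomal cadherins DSG2, the widely expressed desmoglein, fell in CAL62. It had 5325 and 3995 with DMSO, 4777 and 4669 with 1 µM DEL-22379, 2011 and 1542 with 10 µM DEL-22379, and 4304 and 3981 with U0126, and only 10 µM DEL-22379 stood apart. The difference was -1.39 (SE 0.17, adjusted p = 0.000108), in all alternatives. DSC2, the desmocollin that pairs with it in simple epithelia, rose with U0126 in both lines. In CAL62 it had 215 and 179 with DMSO, 191 and 184 with 1 µM DEL-22379, 143 and 104 with 10 µM DEL-22379, and 602 and 453 with U0126, and in 8505c 406 and 398 with DMSO, 514 and 435 with 1 µM DEL-22379, 502 and 406 with 10 µM DEL-22379, and 857 and 840.1 with U0126. The U0126 libraries were the highest in each line. The differences were 1.41 (SE 0.20, adjusted p = 0.000314) and 1.08 (SE 0.20, adjusted p = 0.00446), both in all alternatives. In CAL62 it also fell with 10 µM DEL-22379 by 0.68 (adjusted p = 0.0188, and 0.159 without replicate 2 of DEL-22379 and 0.127 without replicate 1 of DMSO). DSC3 had 4049 and 4565 with DMSO, 4308 and 4755 with 1 µM DEL-22379, 2989 and 3766 with 10 µM DEL-22379, and 3468 and 4252 with U0126 in 8505c, with no difference past the threshold.

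Few clustered protocadherins passed the test in 8505c. With 10 µM DEL-22379, 0 rose and 1 fell of 45, where 13.6% of all genes were called in either direction, and with U0126 3 rose and 0 fell, where 12.7% were called, namely PCDHB7, PCDHB13 and PCDHB14. Their differences were 1.83 (adjusted p = 0.0377), 1.22 (adjusted p = 0.0378) and 1.42 (adjusted p = 0.0296). PCDHB14 had 44.4 and 36.7 with DMSO, 54.3 and 42.1 with 1 µM DEL-22379, 36.4 and 34.1 with 10 µM DEL-22379, and 112 and 107 with U0126, with U0126 above all others. Each of the 3 calls was lost when any one of the DMSO or U0126 libraries of 8505c was left out. With U0126 12 of 15 beta genes and 18 of 21 gamma genes had higher means, with medians of 0.62 and 0.72 over the groups. The direct comparison of U0126 with 10 µM DEL-22379 in 8505c called 6 members up and 2 down, where 5.39% of all genes were higher, 4.55% lower and 9.94% called. The members called were 10.4%, near the share of all genes, so the number is no result about them. No member was called there without either U0126 library, 1 without replicate 1 of DEL-22379 and 4 without replicate 2.

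The difference between the lines in the response to each inhibitor was tested as an interaction. For 10 µM DEL-22379, 12 members had a lower response in CAL62 and 0 a higher one, where 7.21% of all genes were higher, 7.17% lower and 14.4% called. In either direction 15.6% of the members were called, near the share of all genes, so that number is no result about them. The median was -0.89 over the members and -0.03 over all genes, which equal totals moved to -0.22. PCDH7 (-2.05, adjusted p = 0.00173), PCDHB2 (-2.27, adjusted p = 0.00938), PCDHB5 (-3.67, adjusted p = 0.00286) and PCDH20 (-5.15, adjusted p = 0.00322) were called in all alternatives that could be fitted. FAT4 (-3.43, adjusted p = 0.0185) was not called without replicate 2 of 8505c with DMSO, of 8505c with 10 µM DEL-22379 or of CAL62 with 10 µM DEL-22379 (0.0574, 0.0607 and 0.0706). The count was 7 and 5 without replicate 1 or 2 of 8505c with DMSO and 7 without replicate 2 of 8505c with 10 µM DEL-22379.

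For U0126, 2 members differed between the lines, where 1.84% of all genes were higher, 3.85% lower and 5.69% called. That is 2.6% of the members, below the share of all genes. PCDH9 (2.69, adjusted p = 0.00607), which fell in 8505c, was called in all alternatives. CDH11 (2.57, adjusted p = 0.0177) has 0 in all libraries of CAL62, so its value is the fall in 8505c alone, and edgeR and DESeq2 did not call it (adjusted p = 1.0 and 0.615). Of the 45 clustered protocadherins 0 were called, with a smallest adjusted p of 0.105, 7 at an unadjusted p below 0.05, and a median of 0.90 against 0 over all genes. A higher response of the clusters in CAL62 to U0126 was therefore not shown by this test. Of all 77 members edgeR called 1 and DESeq2 2. The count was 1 without replicate 1 of 8505c with DMSO, either 8505c library of U0126 or replicate 1 of CAL62 with DMSO, and 7 without replicate 2 of CAL62 with DMSO and 4 without either CAL62 library of 1 µM DEL-22379.

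In CAL62 33.9% of all genes were called for 10 µM DEL-22379 and 29.2% for U0126, and in 8505c 13.6% and 12.7%, and the partner lists were not tested as groups. Of 18 catenin and plaque genes 16 were tested. 10 µM DEL-22379 raised 2 and lowered 3 of them in CAL62, and 1 and 2 in 8505c. U0126 raised 4 and lowered 1 in CAL62, and 3 and 0 in 8505c. CTNND1, which encodes p120-catenin and holds classical cadherins at the surface, had 6249.7 and 7149 with DMSO, 6697 and 6887 with 1 µM DEL-22379, 5186 and 4186 with 10 µM DEL-22379, and 14439 and 13446 with U0126 in CAL62. Its differences were -0.52 (adjusted p = 0.00823) and 1.06 (adjusted p = 0.000112). PKP2, a desmosomal plakophilin, rose with U0126 in CAL62 (1.23, adjusted p = 0.000673), with 186 and 266 with DMSO and 539 and 509 with U0126. AFDN, which binds nectins, and ARVCF, a relative of p120-catenin, rose with 10 µM DEL-22379 there (0.71, adjusted p = 0.000223, and 0.93, adjusted p = 0.000226).

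Among 9 of 12 tested genes of other cadherin families, 2 rose with each 10 µM treatment in CAL62, 1 with each in 8505c, and none fell. Among all genes the share called was 33.9% and 29.2% in CAL62 and 13.6% and 12.7% in 8505c. CELSR2, a planar polarity cadherin, had 596 and 586 with DMSO, 679 and 824 with 1 µM DEL-22379, 1559.7 and 1738 with 10 µM DEL-22379, and 1147 and 1447 with U0126 in 8505c and 628 and 759 with DMSO, 571 and 844 with 1 µM DEL-22379, 694 and 706 with 10 µM DEL-22379, and 1877 and 1655 with U0126 in CAL62. It rose with both 10 µM treatments in 8505c (1.48, adjusted p = 0.000606, and 1.12, adjusted p = 0.00222) and with U0126 in CAL62 (1.35, adjusted p = 0.000252). Of 4 tested nectins, which join cells beside cadherins, 1 rose and 1 fell with each 10 µM treatment in CAL62. NECTIN1 rose with 10 µM DEL-22379 (1.15, adjusted p = 0.00031) and fell with U0126 (-1.14, adjusted p = 0.000413). In 8505c 10 µM DEL-22379 raised 1 nectin, and U0126 raised 1 and lowered 1.

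Of 18 tested genes around FAT and Dachsous and of the Hippo pathway, 10 µM DEL-22379 raised 3 and lowered 6 in CAL62, and 0 and 4 in 8505c. U0126 raised 8 and lowered 2 in CAL62, and 1 and 5 in 8505c. Of all genes 33.9% and 29.2% were called with these treatments in CAL62, and 13.6% and 12.7% in 8505c. AJUBA, a LIM protein that inhibits LATS kinases, had 2991 and 3745 with DMSO, 2582 and 3414 with 1 µM DEL-22379, 1746 and 1717 with 10 µM DEL-22379, and 12099 and 12320.0 with U0126 in CAL62. It fell with 10 µM DEL-22379 (-0.95, adjusted p = 0.000272) and rose with U0126 (1.87, adjusted p = 2.81e-06), and in 8505c it rose with U0126 (1.58, adjusted p = 3.64e-05). FRMD6, an upstream Hippo component, fell in 8505c with 10 µM DEL-22379 (-1.60, adjusted p = 0.00018). TEAD4 fell and LATS2 rose with 10 µM DEL-22379 in CAL62 (-1.08, adjusted p = 0.000178, and 0.96, adjusted p = 0.00102).

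The EMT factors repress CDH1 through E-boxes. In CAL62 10 µM DEL-22379 raised 3 of the 7 and lowered 1, U0126 raised 2 and lowered 1, and in 8505c each lowered 1 and raised 0. SNAI1 had 146 and 232 with DMSO, 183 and 229 with 1 µM DEL-22379, 4559 and 22119 with 10 µM DEL-22379, and 229 and 490.4 with U0126 in CAL62, where 10 µM DEL-22379 stood far above all others but its 2 libraries differed widely. The difference was 5.76 (adjusted p = 2.67e-05). ZEB1 rose in CAL62 with 10 µM DEL-22379 (0.85, adjusted p = 0.000542) and fell in 8505c (-0.82, adjusted p = 0.00269). Of 10 proteases that cleave cadherins, 10 µM DEL-22379 raised 2 and lowered 2 in CAL62 and raised 1 in 8505c. U0126 raised 2 and lowered 1 in CAL62. Read against 33.9% and 29.2% of all genes called in CAL62, and 13.6% and 12.7% in 8505c, nothing is read from the counts of these short lists. ADAM15 fell and APH1B rose with U0126 in CAL62 (-0.98, adjusted p = 0.000293, and 0.98, adjusted p = 0.0028).

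Markers of cell state moved with the same treatments. In CAL62 the 10 mesenchymal markers summed to 91743 and 178952 with DMSO, 117126 and 123417 with 10 µM DEL-22379, and 859048 and 1061319 with U0126, with 3 genes up and 5 down for 10 µM DEL-22379 and 6 up and 0 down for U0126. FN1, which encodes fibronectin, alone had 29834 and 108889.6 with DMSO, 12779.9 and 24455 with 1 µM DEL-22379, 9031 and 17530.2 with 10 µM DEL-22379, and 906327 and 739858 with U0126 there, which is most of the sum with U0126. VIM, which encodes vimentin, made up most of the sum with 10 µM DEL-22379. It had 48949 and 46076 with DMSO and 97283 and 98481 with 10 µM DEL-22379 in CAL62, a rise of 1.04 in limma's test (adjusted p = 9.71e-05). The 11 epithelial markers summed to 54855 and 90329 with DMSO, 28907 and 37058 with 10 µM DEL-22379, and 117129 and 128390 with U0126. Of them 10 were tested. 10 µM DEL-22379 raised 1 and lowered 3, and U0126 raised 2 and lowered 2. With 33.9% and 29.2% of all genes called, nothing is read from these epithelial counts. Of 10 thyroid follicular markers 8 were tested in CAL62, and with 10 µM DEL-22379 4 rose and 0 fell (median log2 difference 1.46, and 0 over all genes), while U0126 called 0. SLC26A4, an anion transporter, had 2.68 and 6.46 with DMSO, 7.75 and 5.65 with 1 µM DEL-22379, 19.1 and 39.2 with 10 µM DEL-22379, and 6.34 and 12.5 with U0126, with 2.44 (adjusted p = 0.00699) for 10 µM DEL-22379. SLC5A5, the iodide symporter, had 0 and 3.69 with DMSO and 19.1 and 87.7 with 10 µM DEL-22379, but it passed the filter through that group alone. Fibroblast markers summed to at most 27.9 in CAL62 without U0126, and to 54.5 and 78.8 with it. Their part in the changes of the cadherins was not tested.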

How the data were processed

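RNA of 16 cultures (2 lines, 4 treatments, 2 biological replicates) was sequenced as stranded mRNA libraries with paired reads of 51 bp. The deposited values are a signal: gene counts that the authors divided by 1 size factor per library. The aligner, counter and annotation were not given in the sources used here. Whole reads were recovered in all 16 libraries (100% of values under 200 within 0.02 reads), although the step of replicate 1 of 8505c with 1 µM DEL-22379 is so near 1 that this is a weak check there. Values of at least 10 in at least 2 libraries were kept, and limma 3.58.1 under R 4.3.3 was run on log2(value + 1), with a mean for each group, a trended and robust prior and two-sided tests. The script was tested on simulated data. Gene positions came from GENCODE 29 by gene ID, ignoring its version (29 of 102 IDs also match in version). Promoters came from RefSeq, by symbol, for 61 of the 77 members.

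The members and lists were chosen with earlier results of these data known. The rule named PCDH7, FAT4, CDH1, CDH2 and up to 20 members past thresholds of the study's size against DMSO whose higher group averaged at least 50. Most of the clustered ones are given by library in CAL62 and by range in 8505c. Other members named were chosen after their values were seen. Alternatives were pseudocounts of 0.5 and 5, no filter, equal totals, quantile normalization, a replicate block, edgeR 4.0.16 and DESeq2 1.42.0 on recovered reads, only 1 line, and each library left out. On the recovered reads edgeR called 6310 and 5364 genes with 10 µM DEL-22379 and U0126 in CAL62, and 2514 and 2464 in 8505c. Protein sequences were not analysed here.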

Additional observations from a re-analysis of the deposited data

Results flagged for a closer look

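The response of 14 members differed between the lines in the interaction test of limma, 12 of 77 for 10 µM DEL-22379 and 2 for U0126, where 14.4% and 5.69% of all genes were called. These are 15.6% and 2.6% of the members, near and below those shares, so the numbers are no result about the members. Of these calls 4 of 12 and 1 of 2 stood in all alternatives that could be fitted. For 10 µM DEL-22379 the difference, CAL62 minus 8505c on the log2 scale, was -2.95 for CDH5, -0.82 for DSG2, -3.43 for FAT4, -5.15 for PCDH20, -2.05 for PCDH7, -1.69 for PCDHA10, -3.69 for PCDHB10, -1.89 for PCDHB12, -2.35 for PCDHB14, -2.27 for PCDHB2, -3.67 for PCDHB5 and -3.10 for PCDHGA1. For U0126 it was 2.57 for CDH11, which has 0 in all 8 libraries of CAL62, and 2.69 for PCDH9. CDH5 had at most 5.54 normalized counts with DMSO in CAL62 and 0 in both libraries of 10 µM DEL-22379. PCDH20 went from 7.98 and 6.48 with DMSO to 29.4 and 18.7 with 10 µM DEL-22379 in 8505c, and from 8.03 and 14.8 to 0 in CAL62.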

How the results depend on the processing

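No called value changed direction in the 9074 alternatives of the 368 called values of members and list genes. In 8260 of these the call remained and in 814 it was lost, and 501 of 24251 alternatives of values that were not called passed. With 2 replicates a group, single libraries set many calls. The members called, with 1 library left out, numbered 0 to 6 for 10 µM DEL-22379 and 3 to 12 for U0126 in 8505c, 20 to 36 and 6 to 31 in CAL62, 39 to 49 between the lines with DMSO, 0 to 12 and 45 to 51 between the inhibitors in 8505c and CAL62, and 5 to 16 and 1 to 7 for the line differences with 10 µM DEL-22379 and U0126. They stayed at 0 for 1 µM in both lines.

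In 8505c 10 µM DEL-22379 called 3 members by edgeR and 11 with that line alone, against 5. U0126 in CAL62 called 16 with that line alone, against 26. Between the inhibitors in 8505c the 8 calls became 14 with a pseudocount of 5, 13 with quantile normalization, 13 by DESeq2 and 23 with that line alone. For the line difference with U0126 the 2 calls became 4 with a pseudocount of 5 and 1 by edgeR. The causes were not tested.

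The labels number the replicates 1 and 2 without naming a shared batch, and 2 numbers are too few to show a pairing. Deviations of same-numbered libraries correlated over genes at 0.22 to 0.504 in CAL62 and 0.088 to 0.122 in 8505c. With a replicate block the members called were 9 and 14 for 10 µM DEL-22379 and U0126 in 8505c, 36 and 33 in CAL62, 51 between the lines, 15 and 54 between the inhibitors, 22 (20 lower and 2 higher in CAL62, against 12 lower and 0 higher without it) and 4 for the line differences, and 0 for 1 µM in both lines, while the share of all genes called also went up, to 26.1%, 23.7%, 43.9%, 40%, 56.2%, 20.4%, 51.8%, 26.4% and 12.8% in the same order.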
